A study of Mus musculus with 6 samples.

Results

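Smooth muscle contractile genes and cytoskeletal genes that respond to serum response factor (SRF) form a set of 39 named genes, examined here in mouse embryonic fibroblasts with and without a hairpin against ARF. A gene was represented by its array probeset with the highest mean, among probesets that the platform annotation gives to that gene alone. In this way 38 of the 39 genes could be measured, out of 19288 genes named on the array. Actg1, which encodes cytoplasmic gamma-actin, had no probeset of its own. Mkl1, Mkl2, Ctgf and Cyr61 were found under their current symbols Mrtfa, Mrtfb, Ccn2 and Ccn1.

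SRF is a transcription factor that binds the CArG box, a run of As and Ts between CC and GG, in the control regions of actin, myosin and calponin genes. The cofactors MKL1 and MKL2 bind monomeric actin in the cytoplasm, and when actin polymerises they enter the nucleus and act with SRF. Fibroblasts carry the non-muscle actins and myosins at all times, and they turn on smooth muscle isoforms such as alpha smooth muscle actin when they become contractile myofibroblasts.

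The study compared 3 arrays of cells with the control hairpin shSCR and 3 arrays of cells with the hairpin shARF, which is directed at ARF, a tumour suppressor encoded by the Cdkn2a locus. All 6 samples were fibroblasts that the series title calls dp53R, all 6 sample titles carry the word Ras, and all were grown in DMEM with fetal bovine serum and detached with trypsin. The labels do not expand dp53R, name the hairpin sequences or say whether a group is a single clone. Replicates are called biological in the labels, with no word on separate cultures or animals, so the p-values measure the spread between these samples only.

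Median signals lay between 41.97 and 42.86 on a linear scale, and arrays of the same group correlated at 0.9955 to 0.9966 over the log2 values against 0.9915 to 0.9938 between groups. The number of arrays limits the precision, and the median standard error of a log2 difference was 0.0821. Cdkn2a itself measured 535.1, 538.9 and 516 on the shSCR arrays and 315.4, 254 and 285.7 on the shARF arrays. Its log2 difference was -0.90 ± 0.0865 (SE; limma, adjusted p = 0.00459), and the groups did not overlap. All 12 fibroblast markers were tested, and their summed signal was 20360 to 21850 in shSCR and 21760 to 22450 in shARF.

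Of 10 genes that mark contractile smooth muscle 5 were lower in the shARF cells, while beta-actin and the non-muscle myosin heavy chains did not pass the test. The split was not sharp. The non-muscle calponin Cnn2 just missed the threshold at -0.29 (limma, adjusted p = 0.0546), and Acta2 just passed at -0.28 (adjusted p = 0.0491). Of the 38 measured members, 9 fell and 0 rose (limma over all probesets, adjusted p under 0.05). At an unadjusted p under 0.05, 19 members (50%) were lower and 1 (2.63%) was higher, against 13.4% and 8.75% of all tested genes, the shares against which later counts at that p can be read. The 9 were Cnn1, Tgfb1i1, Amotl2, Myl9, Actg2, Srf, Tagln, Tpm2 and Acta2, with log2 differences between -1.25 and -0.28. They make up 23.7% of the measured members, whereas 2.38% of the 15145 genes tested were called lower and 1.62% higher. The falls of Cnn1, Myl9, Actg2, Tagln, Tpm2 and Acta2 were already known when the set was drawn up, and of the other 32 measured members 3 fell, which is 9.38%. In bulk RNA of this kind, fewer cells of a type and less RNA per cell cannot be told apart.

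All 38 members exceeded the detection level, the 25th percentile of each array, on all 6 arrays, so none passed it in only 1 group. That level is a rank and not a measure of background. It does not show that dim members such as Mylk and Synpo2 are expressed. Most members were bright, and 28 had a mean signal over 500, a limit chosen after the data were seen. Among these 28, 7 were lower, against 1.96% of all tested genes above that signal, but 6 of the 7 were the genes already known to fall. Of the other 22 bright members only Tgfb1i1 was called lower (4.55%). The 3 shARF arrays all lay below the 3 shSCR arrays for 20 members, 52.6% of those measured, and 16.6% of all tested genes did the same. Only Csrp1 and Csrp2 among the members showed the opposite separation, 5.26% against 12.0% of all tested genes. The median log2 difference over the members was -0.18 and that over all tested genes -0.01, and 31 members (81.6%) had a negative difference against 53.2% of all tested genes. These counts and the median include the 6 genes already known to fall.

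**Figure D1:**
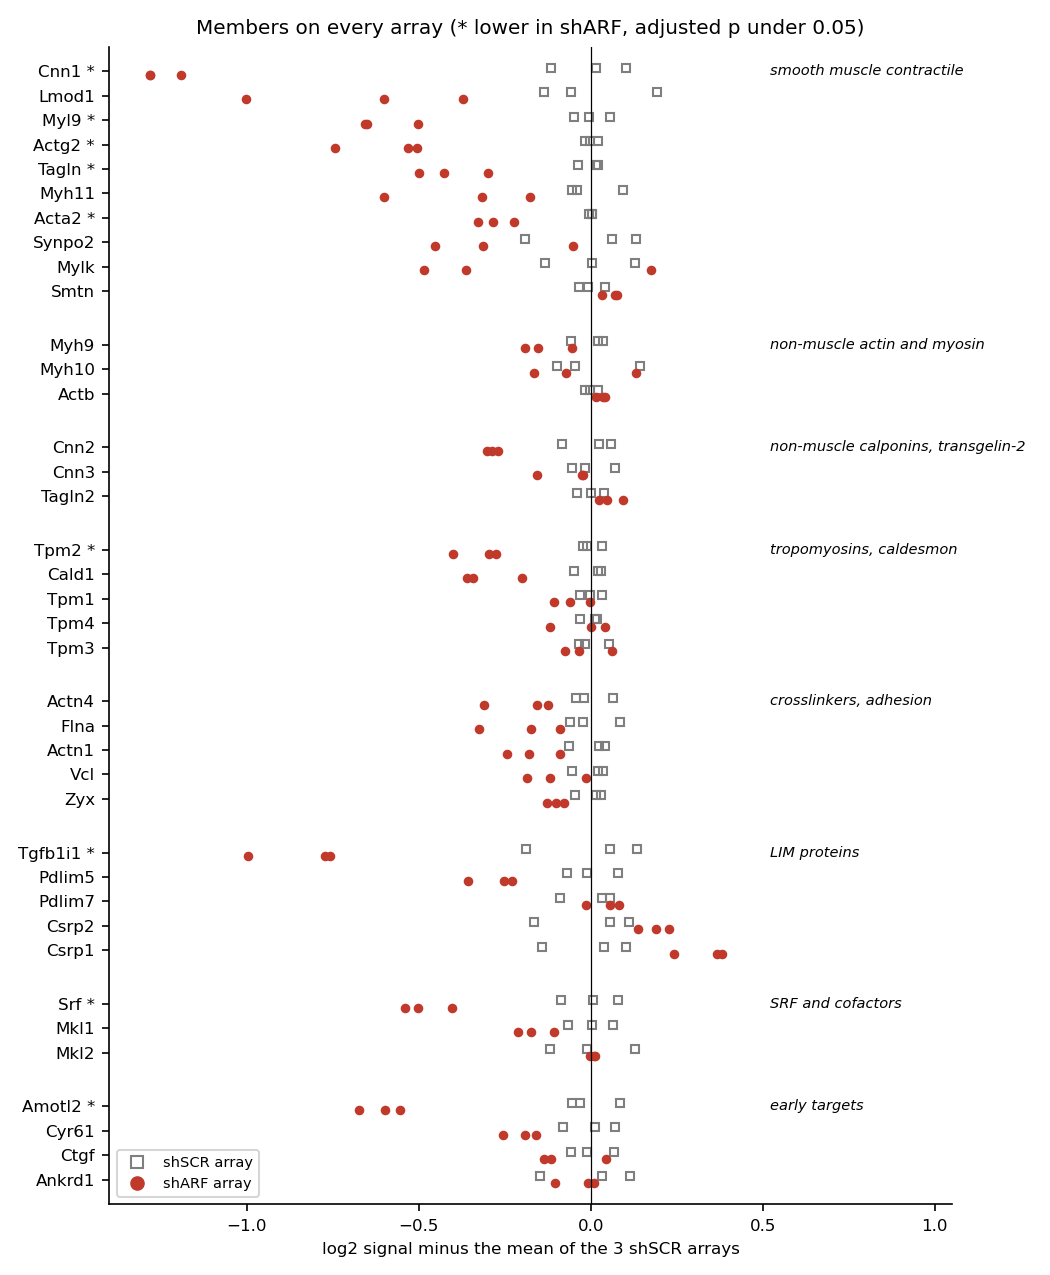
Each row is a member and each mark an array, placed at its log2 signal minus the mean of the 3 shSCR arrays of that gene (squares shSCR, filled circles shARF), with genes grouped by role and an asterisk on the 9 lower members. Cnn1, Tgfb1i1, Amotl2, Actg2 and Myl9 show the widest gaps between the groups, and Csrp1 and Csrp2 lie to the right of their control arrays.

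**Figure D2:**
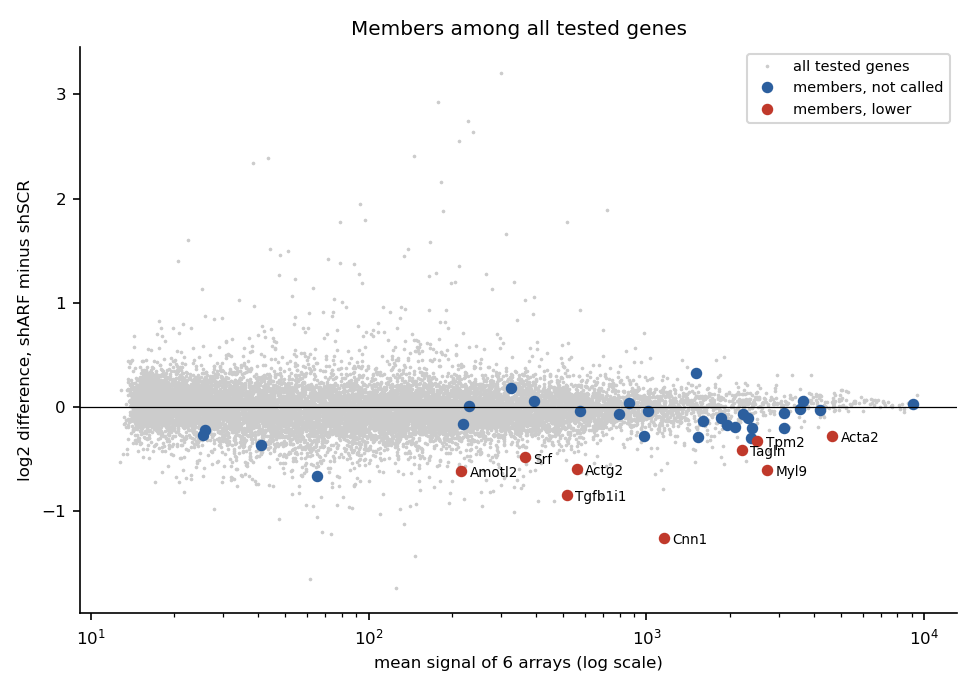
Mean signal of the 6 arrays (log axis) against the log2 difference, shARF minus shSCR, for the 15145 tested genes (grey), with the 29 members that were not called in blue and the 9 lower members in red and named. Members lie mainly in the bright range on the right, where most genes differ little, and Cnn1 sits lowest among them at -1.25.

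The level of SRF's own transcript was lower in shARF, and the transcripts of its cofactors did not pass the test. Srf measured 448.9, 426.8 and 400.5 on the shSCR arrays and 321.4, 292.1 and 300.1 on the shARF arrays. Every shARF array was below every shSCR array. The drop was 0.48 ± 0.0705 (SE) on the log2 scale, 1.40-fold (limma, adjusted p = 0.0161). That call was lost when shSCR replicate 1, shSCR replicate 2, shARF replicate 2 or shARF replicate 3 was left out, with a highest adjusted p of 0.0648 in limma. Mkl1, the MRTF-A cofactor, measured 231.6, 241.6 and 220.7 in shSCR and 199.7, 204.8 and 214.6 in shARF. Its groups did not overlap, but the difference of -0.16 ± 0.0639 did not pass (limma, adjusted p = 0.208). Mkl2, the MRTF-B cofactor, lay between 211.6 and 251.4 in shSCR and between 229.6 and 231.7 in shARF, a difference of 0.01 ± 0.0752 with a 95% interval of -0.17 to 0.18.

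Promoters of the members were read from RefSeq on build GRCm38.p6, taking the 250 bases before each annotated start. Of the 39 genes, 32 had an entry, with 39 promoters in all. Actg2, Myh11, Tagln, Actb, Csrp2, Tgfb1i1 and Ctgf had none. The CArG box, searched by its consensus on both strands, was present in 5 of the 39 member promoters (12.8%), those of Srf, Myl9, Cnn2, Vcl and Actg1, and in 482 of all 32851 promoters (1.47%). Allowing up to 1 different letter, the figures were 13 member promoters (33.3%) and 6117 of all promoters (18.6%). GGAATG on either strand, the letters that TEAD factors recognise, was present in 15 member promoters (38.5%) and 4153 of all promoters (12.6%), and a match can share letters with the end of a CArG box. The set was drawn up from SRF-responsive genes, with targets of the YAP and TEAD pathway among them. Higher shares in the members may therefore follow from that choice. A match is a description of these letters and not evidence of binding.

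Srf and Myl9 are shown because both fell and hold an exact box, and Cnn2 and Vcl because they hold an exact box and did not pass the test. Srf has boxes starting 82 and 62 bases before its start (chr17:46556175-46556284, minus strand), Myl9 1 at 161 bases (chr2:156775263-156775352, plus strand), Cnn2 1 at 56 bases (chr10:79988504-79988593, plus strand) and Vcl 1 at 227 bases (chr14:20929148-20929220, plus strand). Capitals mark the CArG boxes, read 5′ to 3′ on the gene's strand.
Srf: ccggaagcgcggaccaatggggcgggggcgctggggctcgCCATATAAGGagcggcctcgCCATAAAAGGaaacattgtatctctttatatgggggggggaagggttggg
Myl9: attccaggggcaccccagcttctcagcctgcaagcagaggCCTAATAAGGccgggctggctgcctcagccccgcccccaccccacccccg
Cnn2: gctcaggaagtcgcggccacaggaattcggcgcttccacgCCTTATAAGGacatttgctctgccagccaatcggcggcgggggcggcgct
Vcl: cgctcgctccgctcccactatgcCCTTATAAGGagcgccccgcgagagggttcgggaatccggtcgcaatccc

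Acta2, which also fell, has in this window only matches that differ from the box by 1 letter, at 84 and 34 bases before its start (chr19:34255374-34255497, minus strand), marked in capitals.
Acta2: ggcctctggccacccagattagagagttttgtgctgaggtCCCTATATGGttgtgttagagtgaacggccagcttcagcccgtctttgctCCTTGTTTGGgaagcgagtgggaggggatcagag

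Of the 6 lower members with a promoter entry, 2 held an exact box and 3 a box with up to 1 different letter. Cnn1, which fell most, and Tpm2 and Amotl2 held neither in this window. GGAATG on either strand was present in 2 of these 6, against 15 of the 32 members with an entry (46.9%). Of all 32 members with an entry, 5 (15.6%) held an exact box and 12 (37.5%) a box with up to 1 different letter.

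Of the 10 smooth muscle contractile genes 5 were called lower, with a median log2 difference of -0.39 in the role. All 5 are among the genes whose falls were known when the set was drawn up, so this count follows from the choice of members. Of the role's other 5 genes limma called 0, and 2 were lower at an unadjusted p under 0.05. Calponin 1 (Cnn1), an actin-binding protein that restrains myosin in smooth muscle, measured 1744, 1499 and 1641 on the shSCR arrays and 667.7, 710.8 and 667.7 on the shARF arrays. Every control array was far above every shARF array. Cnn1 fell from 1628 ± 123 (SD, n = 3) to 682.1 ± 24.9, by 1.25 ± 0.0742 (SE) on the log2 scale or 2.38-fold (limma, adjusted p = 0.00121). Leaving out any 1 array kept the call, the highest adjusted p in limma being 0.0136.

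Myl9, the regulatory light chain whose phosphorylation switches on smooth muscle and non-muscle myosin II, measured 3397, 3254 and 3159 in shSCR and 2080, 2308 and 2074 in shARF. The groups lay well apart, and the gene fell by 0.60 ± 0.0688 on the log2 scale, 1.52-fold (limma, adjusted p = 0.00789), a call that held without any 1 array. Transgelin (Tagln), a calponin-related actin-binding protein also known as SM22, gave 2544, 2446 and 2533 in shSCR and 1774, 2039 and 1865 in shARF. It was lower on all 3 shARF arrays and fell by 0.41 ± 0.0699 (limma, adjusted p = 0.0271). The Tagln call was lost when any array other than shARF replicate 2 was left out, with adjusted p up to 0.104 in limma.

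Of the smooth muscle actins, Acta2 encodes the alpha form, the usual marker of myofibroblasts, and Actg2 the gamma form of gut muscle. Actg2 measured 683.1, 671.7 and 665.4 in shSCR and 402, 474.5 and 466.1 in shARF. The control arrays lay close together, and all 3 shARF arrays were below them. It fell by 0.59 ± 0.0776 on the log2 scale, 1.51-fold (limma, adjusted p = 0.0114), and the call was lost without shSCR replicate 1 or shSCR replicate 3 (adjusted p of at most 0.0554). Acta2, with the stretches printed above, measured 5111, 5079 and 5112 in shSCR and 4061, 4372 and 4192 in shARF. It too separated fully and fell by 0.28 ± 0.0577, 1.21-fold (limma, adjusted p = 0.0491). Acta2 lay so close to the threshold that leaving out any 1 array ended the call, with adjusted p between 0.0671 and 0.147 in limma. Actin genes are near-identical copies, so a probeset for 1 actin may read others in part and the single values are uncertain.

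The other 5 smooth muscle members did not pass. Leiomodin 1 (Lmod1), which nucleates actin filaments in smooth muscle, measured 90.15, 75.88 and 71.88 in shSCR and 51.99, 61.02 and 39.36 in shARF. Its arrays did not overlap, and its difference of -0.66 ± 0.164 was larger than those of Myl9, Actg2, Tagln and Acta2 but more variable (limma, adjusted p = 0.0816). Myh11, the smooth muscle myosin heavy chain a marker of the mature cell, was dim at 44.73, 49.05 and 44.21 in shSCR and 40.66, 36.9 and 30.26 in shARF. It did not overlap either, at -0.37 ± 0.113 (limma, adjusted p = 0.134). Dimmer still, Mylk, the kinase of the regulatory light chain, differed by -0.22 and Synpo2, an actin-bundling protein, by -0.27, and their groups overlapped. Smoothelin (Smtn), a protein of contractile smooth muscle, differed by 0.06 ± 0.0561 with a 95% interval of -0.07 to 0.19.

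**Figure D3:**
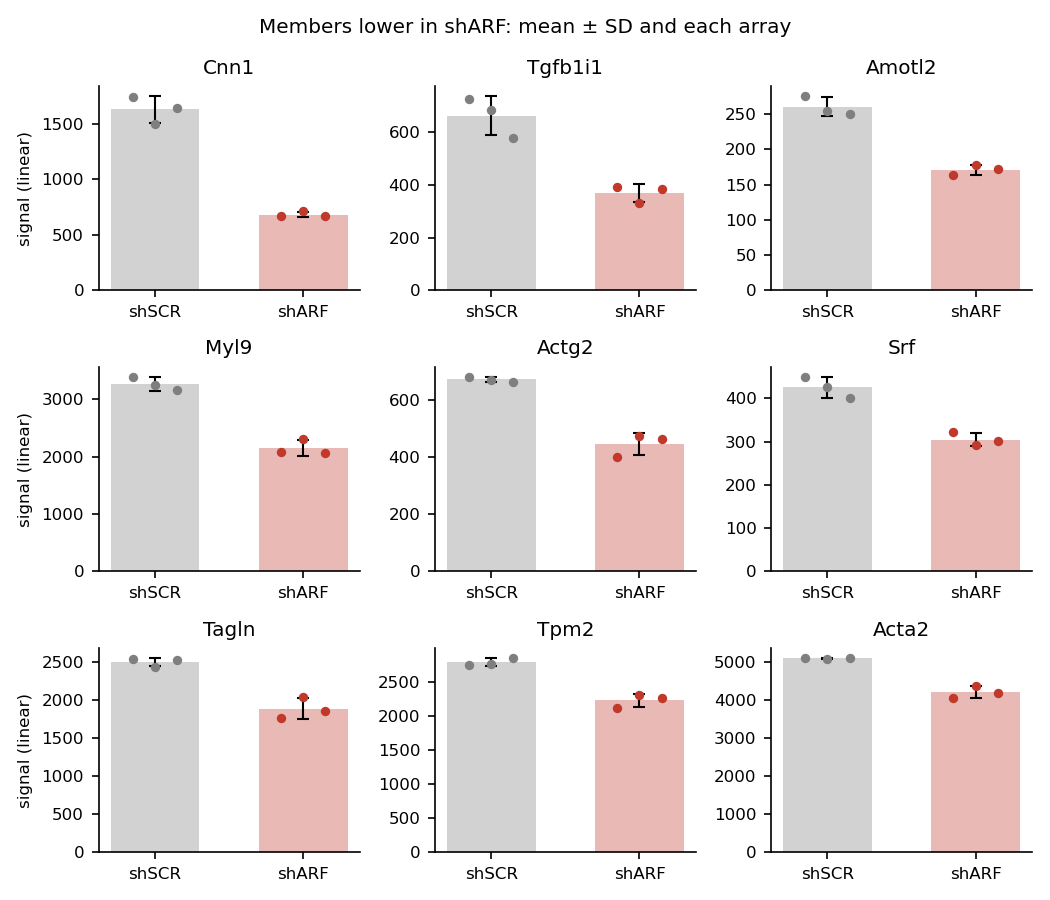
Linear signal of the 9 lower members: bars give the mean of 3 arrays, error bars the SD and points the single arrays (grey shSCR, red shARF), with every axis starting at 0. In each panel the 3 shARF points lie below the 3 shSCR points, from 2.38-fold for Cnn1 to 1.21-fold for Acta2.

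Non-muscle actin and myosin genes gave 0 calls in limma and 0 at an unadjusted p under 0.05. Beta-actin (Actb), the main cytoplasmic actin, measured 8920, 9010 and 9152 in shSCR and 9258, 9295 and 9131 in shARF. The groups overlapped, and the difference was 0.03 ± 0.0538 with a 95% interval of -0.09 to 0.16, turning to -0.03 when the arrays were quantile normalized once more. The 4 probesets shared by Actg1 and Actb differed by -0.05 to -0.03 (limma, adjusted p from 0.63 to 0.798). Myh9, the heavy chain of non-muscle myosin IIA, differed by -0.13 ± 0.0645 (limma, adjusted p = 0.301), and its other probeset by -0.37 (adjusted p = 0.254). Myh10, the heavy chain of myosin IIB, differed by -0.04 ± 0.0999 with an interval of -0.27 to 0.20.

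Among the non-muscle relatives of calponin 1 and transgelin, Cnn2 came nearest to the threshold. It measured 1714, 1758 and 1593 in shSCR and 1399, 1367 and 1381 in shARF, with no overlap, at -0.29 ± 0.0619 (limma, adjusted p = 0.0546). Cnn3, the acidic calponin, differed by -0.07 ± 0.0679. Tagln2, the widely expressed transgelin, differed by 0.06 ± 0.0575, or by -0.02 with the further quantile normalization. Neither passed (limma, adjusted p = 0.613 for Cnn3 and 0.625 for Tagln2). In this role limma made 0 calls, and 1 gene, Cnn2, was lower at an unadjusted p under 0.05.

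Tropomyosins wind along actin filaments and set which proteins reach them, and only Tpm2 of the 4 genes was called. Tpm2, the beta-tropomyosin that muscle cells favour, measured 2739, 2762 and 2850 in shSCR and 2109, 2300 and 2265 in shARF. Its arrays did not overlap, and it fell by 0.32 ± 0.0615 on the log2 scale (limma, adjusted p = 0.0375), although the call was lost without any 1 of the 6 arrays (adjusted p between 0.0627 and 0.132). Tpm1, Tpm3 and Tpm4 differed by -0.06, -0.02 and -0.02. For Tpm3 the further probesets differed by 0.05, 0.09 and 0.16, so the sign of its small difference depends on the probeset. Caldesmon (Cald1), which binds tropomyosin and actin, measured 2653, 2528 and 2668 in shSCR and 2038, 2275 and 2063 in shARF. Its groups did not overlap, at -0.30 ± 0.0673 (limma, adjusted p = 0.0603).

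To compare related genes, the log2 signal of a gene taken as non-muscle was subtracted within each array from that of a relative taken as muscle-type. The change of this quantity between groups was taken. Signals were read per gene, so splice forms of a gene, such as those of the tropomyosins, were not told apart. With 3 arrays against 3, the exact two-sided permutation test cannot give less than p = 0.1, and the Benjamini-Hochberg value over the 11 pairs was then 0.1375, so no pair could pass. In 8 of the 11 pairs the 3 shARF arrays lay entirely below the 3 shSCR arrays, and these 8 reached the smallest p. Of these 8, all but Tpm1 against Tpm3 hold a gene already known to be lower. Their count and direction therefore follow largely from that choice and are a description. The pairs without such a gene were those of Myh11 and Tpm1, and only Tpm1 against Tpm3 separated, at -0.04. Genes such as Cnn1 and Tpm2 recur, so the pairs are not independent.

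For Cnn1 the difference of changes was -0.97 ± 0.0959 (SE, log2) against Cnn2 and -1.19 ± 0.0809 against Cnn3. The SE of a pair comes from the spread of that pair's own arrays alone. The limma SE of a single gene also draws on the spread of other genes, so these SEs cannot be compared. Tagln against Tagln2 gave -0.46 ± 0.0828. Against Actb, Actg2 gave -0.63 ± 0.0807 and Acta2 -0.31 ± 0.0314. In these 5 pairs every shARF array lay below every control array.

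Tpm2 gave -0.31 ± 0.0261 against Tpm3 and -0.30 ± 0.0164 against Tpm4. Tpm1 gave only -0.04 ± 0.0154 against Tpm3, without overlap, and -0.03 ± 0.032 against Tpm4, with overlap (exact permutation p = 0.2). Myh11 overlapped in both of its comparisons, at -0.23 ± 0.155 against Myh9 (exact permutation p = 0.3) and -0.33 ± 0.197 against Myh10 (exact permutation p = 0.2). Pairs with Actg1 could not be formed.

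**Figure D4:**
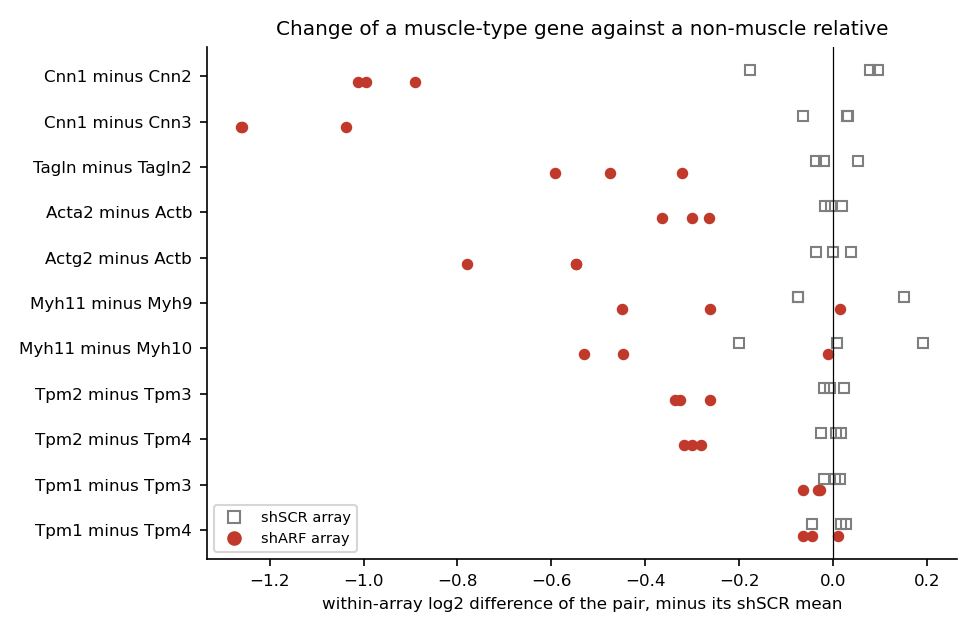
For each pair, the log2 signal of the gene taken as muscle-type minus that of the relative taken as non-muscle within an array, after subtracting the shSCR mean (squares shSCR, filled circles shARF). The Cnn1 pairs lie farthest to the left at -0.97 and -1.19, the Acta2 and Tpm2 pairs between -0.31 and -0.30, and the Myh11 and Tpm1 pairs overlap or nearly touch the control arrays.

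Genes for crosslinking and adhesion gave 5 of 5 negative differences and 0 calls in limma, with 3 lower at an unadjusted p under 0.05 (13.4% of all tested genes were). The alpha-actinins, which tie actin filaments into bundles, differed by -0.17 ± 0.067 for Actn1 (1976, 2125 and 2098 in shSCR, 1743, 1941 and 1823 in shARF) and by -0.20 ± 0.0722 for Actn4. Filamin A (Flna), which links filaments into a network, differed by -0.20 ± 0.0803. Zyxin (Zyx), a stress fibre and adhesion protein, differed by -0.10 ± 0.0566. In these 4 genes every shARF array was below every shSCR array, a separation that 16.6% of all tested genes showed. None of the 4 passed, and adjusted p ranged from 0.189 to 0.353 in limma. Vinculin (Vcl), whose promoter box is printed above, couples integrin adhesions to actin and overlapped at -0.11 ± 0.0679 (limma, adjusted p = 0.42).

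LIM-domain members differed in both directions. Tgfb1i1 (Hic-5), a focal adhesion adaptor that is also induced by TGF-beta, measured 725, 686.5 and 579.9 in shSCR and 390.9, 331.3 and 386.8 in shARF. The lowest shSCR array was far above the highest shARF array. This member had the largest difference after Cnn1, a fall of 0.84 ± 0.106 on the log2 scale or 1.79-fold (limma, adjusted p = 0.0103), and its call held without any 1 array. Csrp1, a cysteine-rich LIM protein of smooth muscle and fibroblasts, was on the opposite side, with 1434, 1373 and 1212 in shSCR and 1725, 1742 and 1579 in shARF. There was no overlap, and the difference of 0.33 ± 0.0826 did not pass (limma, adjusted p = 0.0829). Its relative Csrp2 also lay higher on all 3 shARF arrays, by 0.19 ± 0.0841 (limma, adjusted p = 0.268). Pdlim5, a PDZ and LIM scaffold on alpha-actinin, measured 1137, 1069 and 1027 in shSCR and 840.6, 918.8 and 904.1 in shARF. Its separation was complete, at -0.28 ± 0.0682 (limma, adjusted p = 0.0771), while the related Pdlim7 differed by 0.04 ± 0.066.

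Amotl2, Cyr61, Ctgf and Ankrd1 are targets of the YAP and TEAD pathway, several of which also answer SRF with its cofactors, and only Amotl2 was called. Amotl2, an angiomotin that binds actin and YAP, has GGAATG on the reverse strand 65 bases before its start (chr9:102717699-102717784, plus strand). Ankrd1, a nuclear ankyrin repeat protein, has it at 210 and 123 bases (chr19:36119922-36120094, minus strand), and Cyr61, a secreted matrix protein, has it in reverse at 103 bases (chr3:145650043-145650128, minus strand). They are shown to set the called gene beside uncalled genes with the same letters, in capitals.
Amotl2: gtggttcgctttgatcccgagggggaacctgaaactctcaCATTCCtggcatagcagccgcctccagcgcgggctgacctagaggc
Ankrd1: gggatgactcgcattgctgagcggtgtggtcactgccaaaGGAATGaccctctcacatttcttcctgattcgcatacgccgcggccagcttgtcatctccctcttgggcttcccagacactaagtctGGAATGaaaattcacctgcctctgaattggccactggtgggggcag
Cyr61: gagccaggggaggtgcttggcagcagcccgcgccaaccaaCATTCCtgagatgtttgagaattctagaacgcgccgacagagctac

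Amotl2 measured 276.3, 255.2 and 250.9 in shSCR and 163.2, 177.3 and 172 in shARF. It was clearly separated and fell by 0.61 ± 0.0669 on the log2 scale, 1.53-fold (limma, adjusted p = 0.00699), and the call held without any 1 array. Cyr61 measured 3498, 3150 and 3364 in shSCR and 2794, 2986 and 2918 in shARF. Its groups did not overlap, at -0.20 ± 0.0656 (limma, adjusted p = 0.147). Ctgf, the relative of Cyr61 that is also induced by TGF-beta, differed by -0.07 ± 0.073 with an interval of -0.24 to 0.10, and Ankrd1 by -0.03 ± 0.082 with an interval of -0.23 to 0.16. Both of these overlapped between the groups.

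Taking the roles array by array, the median relative log2 signal of the smooth muscle genes was -0.43, -0.34 and -0.49 on shARF replicates 1, 2 and 3, against -0.02 to 0.03 on the shSCR arrays. All members together gave -0.20, -0.14 and -0.15 on the shARF arrays. Both sets include genes already known to fall when the members were drawn up, so their medians follow in part from that choice. ShARF replicate 1 was the lowest of its group for 22 of the 38 members, and shARF replicate 2 was the highest for 28. The part of these array differences in the members' values was not tested.

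Neighbouring pathways were described by lists of their genes. A list of 17 genes held immediate early genes, which SRF controls with the TCF cofactors, and the cofactors Elk1, Elk3 and Elk4 themselves. This list gave 0 calls in limma, with a median of -0.11. An unadjusted p under 0.05 was reached by 5 lower and 2 higher genes, where all tested genes gave 13.4% lower and 8.75% higher. The 2 higher genes were Ier2 and the cofactor Elk3. Nr4a1, an orphan nuclear receptor, differed by -0.30 (adjusted p = 0.0625) and Ier2 by 0.27 (adjusted p = 0.0947). The 19 Hippo pathway genes also gave 0 calls, with a median of -0.05, and an unadjusted p under 0.05 was reached by 2 lower genes and 1 higher. There, Stk4, the kinase MST1, differed by 0.37 (adjusted p = 0.0767) and Tead1, a DNA-binding partner of YAP, by -0.26 (adjusted p = 0.0878).

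Of 25 further adhesion and LIM genes, 2 (8%) fell, where 2.38% of all tested genes were called lower, and the median of the list was -0.06. Its differences were negative in 76% of genes, against 53.2% of all tested genes. An unadjusted p under 0.05 was reached by 7 lower genes and 0 higher, where all tested genes gave 13.4% lower and 8.75% higher. Fhl1, a LIM protein of muscle, fell by 0.65 from 1305 ± 48.6 to 837.2 ± 90.7 (limma, adjusted p = 0.0124), and Parva, which joins integrin-linked kinase to actin, fell by 0.31 (adjusted p = 0.0356). Among 18 further smooth muscle genes 2 (11.1%) fell, with a median of 0.03. They were Ppp1r14a, the myosin phosphatase inhibitor CPI-17, at -0.54 (43.27 to 29.86, limma, adjusted p = 0.0336) and Sorbs2, a stress fibre adaptor, at -0.52 (78.46 to 55.02, adjusted p = 0.0356). Npnt, a matrix ligand of integrins, differed by -0.49 (adjusted p = 0.0564) and Synm, an intermediate filament protein, by -0.37 (adjusted p = 0.0766). In this list an unadjusted p under 0.05 was reached by 6 lower genes and 2 higher. Kcnmb1 and Pln, both with positive differences that enter the median, exceeded the detection level on only 1 of the 3 shSCR arrays.

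**Figure D5:**
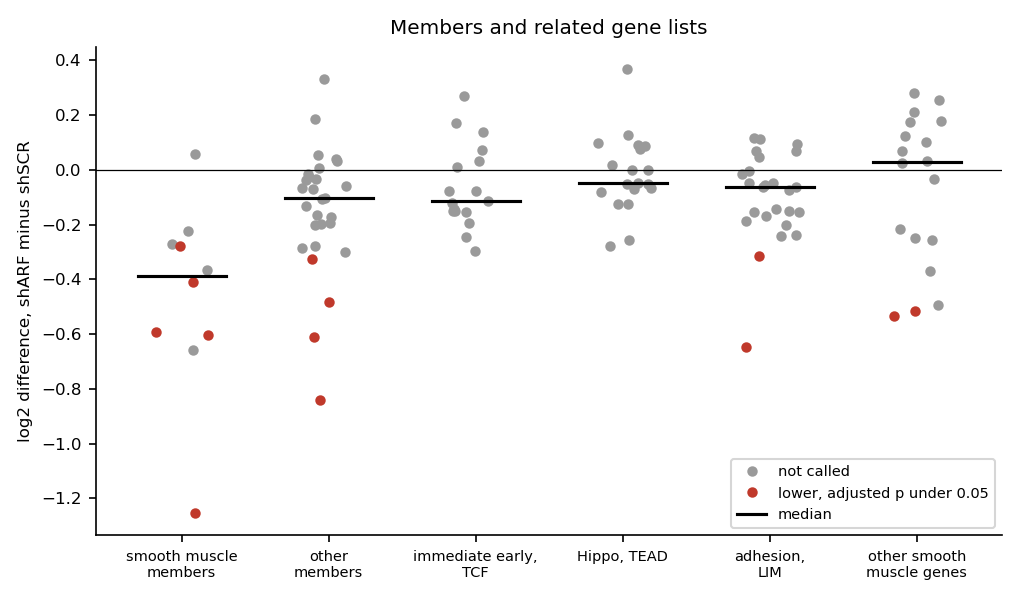
Each point is the log2 difference, shARF minus shSCR, of a tested gene in the smooth muscle members, the other members and 4 related lists; red points were called lower by limma and black lines are medians. The smooth muscle members have the lowest median at -0.39, while the related lists have medians between -0.11 and 0.03. Smooth muscle members include genes already known to fall when the set was drawn up, so their low median follows in part from that choice.

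Markers of other cell types were read beside these results. The 9 smooth muscle and pericyte markers, some of them members, summed to signals from 2203 to 2495 on the control arrays and from 1403 to 1476 on the shARF arrays. Without Cnn1 the other 8 summed to 703.8 to 751 and 735.2 to 765, and the median log2 difference of the 9 was 0.03, with 5 of 9 positive. Of the 5 positive markers, Rgs5 exceeded the detection level on 0 and Kcnmb1 on 1 of the 3 shSCR arrays. Des was dim, at means of 24.06 in shSCR and 24.39 in shARF, and the others were Smtn and Cspg4. The 4 negative markers, Cnn1, Lmod1, Myh11 and Ppp1r14a, exceeded that level on every array. Cnn1 and Ppp1r14a were lower, whereas Cspg4, the pericyte proteoglycan NG2, rose by 0.58 from 119.8 to 178.4 (limma, adjusted p = 0.00963). Of 17 tested striated muscle markers, Acta1, the skeletal actin, fell by 0.43 (291.2 to 216, adjusted p = 0.0145) and Tnnt2, cardiac troponin T, rose by 0.91 (47.49 to 90.13, adjusted p = 0.00963). These 17 summed to between 789 and 809.5 on the control arrays and between 771.7 and 791.1 on the shARF arrays.

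Epithelial markers summed to 474.5 to 504.3 on the control arrays and to 547.5 to 685.7 on the shARF arrays over 7 tested genes. Keratin 18 (Krt18) was the only 1 called and makes up much of the higher sum. It rose by 0.93, from 128.6 to 250.2 (limma, adjusted p = 0.037). Of the 7 differences 5 were positive, and 2 were negative, those of Krt19 and Cldn4. Krt19 differed by -0.20, from 219.3 to 190.4 (limma, adjusted p = 0.17), and Cldn4 by -0.23. An unadjusted p under 0.05 was reached by 3 higher genes and 1 lower. For macrophages 3 of 8 markers were tested, summing to 137.7 to 161 in shSCR and 131.7 to 157.5 in shARF, with 0 called and 1 lower at an unadjusted p under 0.05 in limma. For endothelium 6 of 8 were tested, summing to 116.7 to 132 in shSCR and 121.4 to 130.1 in shARF, with 0 called and 1 higher at that unadjusted p. The 12 fibroblast markers had 0 calls, an unadjusted p under 0.05 was reached by 3 lower genes and 1 higher, and the largest difference was that of decorin (Dcn) at 0.71 (limma, adjusted p = 0.0625). The part of other cell types in the members' falls was not tested.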

How the data were processed

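RNA of 6 fibroblast samples was measured on Affymetrix gene-level arrays. Per the submitters' processing notes, the authors used Affymetrix Expression Console and RMA, which corrects background, quantile normalizes and summarises probes. The deposited values are linear intensities for 26851 probesets, and quantile normalization hides any change common to most genes. They were turned to log2 here. Annotation gave 21056 probesets 1 gene, 1450 several and 4345 none. A probeset was tested if above its array's 25th percentile (signal 14.06 to 14.92) on at least 3 of 6 arrays, which left 20310 probesets and 15145 genes. The contrast of shARF with shSCR was fitted with limma (version 3.58.1, R version 4.3.3, two-sided eBayes), checked on simulated data, with Benjamini-Hochberg adjustment over all tested probesets and a threshold of 0.05. SAM, the test of the series' design text, was not run here. Results of 1 list of related genes are not reported here.

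The members and lists were chosen with earlier results of these data known. All members are named, and from other lists the called genes and up to 2 more with the smallest p, besides genes named to describe what a list holds. A gene's level was not set against another's. Related genes were compared by their changes, with an exact permutation test. Alternatives were another filter, no filter, a pseudocount of 16, further normalization, trend with robust eBayes, all probesets averaged, a replicate block and each array left out. The limit of 500 on signal was added after seeing the data.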

Additional observations from a re-analysis of the deposited data

How the results depend on the processing

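Counts of calls moved with the settings. Against 607 changed genes, limma called 372 with no filter, 996 with only probesets above the array median, 978 with a pseudocount of 16 and 1281 with trend and robust eBayes. With 1 array left out it called 150 to 330. Members lower numbered 16 with trend and robust eBayes, when Lmod1, Cnn2, Cald1, Actn1, Actn4, Pdlim5 and Cyr61 joined the 9, and 4 to 6 with 1 array left out. Members higher numbered 1, Csrp1, above the array median, with the pseudocount and with trend and robust eBayes. The replicate block gave 336 changed genes and 6 lower members, without Acta2, Tagln and Tpm2. Same-numbered arrays deviated together at r = 0.078, 0.052 and 0.001, and differently numbered arrays at -0.14 to 0.094. The labels do not say whether same-numbered samples were handled together, and these values cannot decide it. Acta2 and Tpm2 also missed the threshold with no filter (adjusted p = 0.0877 and 0.0662), and Acta2 with median centring (0.0565). Cnn1, Myl9, Tgfb1i1 and Amotl2 were called under each alternative run. The separated gene pairs numbered 7 with further quantile normalization and 8 to 11 with 1 array left out. Leaving out an array cannot undo a separation, so the latter count could not fall and does not test stability.

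No called difference turned its sign. Among uncalled members, further quantile normalization gave -0.032 for Actb and -0.017 for Tagln2, and averaging all probesets gave 0.072 for Tpm3. With 1 array left out, differences spanned -0.119 to 0.036 for Myh10, -0.055 to 0.013 for Tpm3, -0.058 to 0.022 for Tpm4, -0.003 to 0.07 for Pdlim7, -0.053 to 0.071 for Mkl2 and -0.108 to 0.022 for Ankrd1. The causes were not tested. Mylk and Synpo2, at signals of 19.68 to 31.12, were the members nearest to the detection level, which limits their precision.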
